A study of Bos taurus and Ovis aries and Capra hircus with 18 samples.

Results

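Excitation-contraction coupling was followed through 10 genes of the skeletal muscle triad and its calcium store: RYR1, CACNA1S, CACNG1, STAC3, JPH1, JPH2, ATP2A1, ATP2A2, CASQ1 and CASQ2. They are a list of named triad and store genes, out of 27607 cattle, 26478 sheep and 27271 goat gene models. Cattle genes were named by position, and their sheep and goat partners were found by exon structure and gene order. Of the 10 genes, 9 were matched in all 3 species. Each lay between the same pair of nearest named and matched genes in every genome. Since gene order was used to find the partners, this is no separate check of them. For JPH2 the cattle annotation holds only 2 short fragments, so this gene was compared with brain in every species but between species only for sheep and goat.

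The samples were frozen adult muscle and adult brain of Bos taurus cattle, of sheep and of goat, with 3 RNA sequencing libraries, lettered A to C, in each of the 6 groups and 18 in all. No treatment, mutation or breed contrast is labelled, and neither the muscle, the brain region nor the animal behind each letter is given in the sources used here. The p-values therefore measure only the spread between these libraries, which may be technical. Muscle and brain were compared within each species, and species were compared within each tissue.

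Muscle contracts when a voltage change in the transverse tubule opens a calcium channel of the neighbouring sarcoplasmic reticulum. CACNA1S is the voltage sensor in the tubule, CACNG1 is its gamma subunit, STAC3 is an adaptor that the sensor needs, and RYR1 is the release channel that it opens. Junctophilins (JPH1, JPH2) hold the membranes of the triad together, calsequestrins (CASQ1, CASQ2) bind calcium inside the store, and the pumps ATP2A1 and ATP2A2 return calcium to it. ATP2A1 is the pump of fast fibres and CASQ1 the main calsequestrin of skeletal muscle, while ATP2A2 and CASQ2 are the forms of slow fibres and heart, and ATP2A2 also serves most other cells, neurons among them.

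Library totals ran from 20730803 to 58514630 counts, and between 17204 and 20221 genes had at least 1 count. The labelled tissues carried their markers: the 6 matched skeletal muscle genes (CKM, MB, NEB and others) summed to between 21132 and 67092 RPKM in muscle and to between 3.81 and 23.5 RPKM in brain. RPKM here is the read count divided by the exonic length of the gene model and by the scaled size of the library, so levels can be set side by side between genes; between species they also depend on how much of each transcript the gene models hold. A set of 6 neuronal genes (SNAP25, SYT1 and others) summed to between 2.17 and 6.01 RPKM in muscle and to between 1522 and 3128 RPKM in brain. A gene was called at an adjusted p below 0.05 (edgeR quasi-likelihood test, Benjamini-Hochberg adjustment over all genes) together with a change of at least 2-fold.

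All 10 genes were called higher in muscle than in brain in cattle, in sheep and in goat, where the tested genes as a whole were called in that direction in 25.3% of cases for cattle, 19.1% for sheep and 23.2% for goat. In no species did a muscle library overlap a brain library for any of them. The share of all genes that separate in this way was not counted. The median log2 change of the tested members, muscle over brain, was 8.93 over 11 cattle models, 7.35 over 10 sheep models and 7.51 over 10 goat models, against -0.09, -0.17 and -0.12 over all genes of those species. In bulk tissue, more cells of a type and more RNA per cell cannot be told apart. As ratios of mean levels, muscle over brain, the smallest contrast was that of ATP2A2 in cattle (6.28) and sheep (3.41) and that of CASQ2 in goat (6.28, against 8.06 for ATP2A2). ATP2A1 and CASQ1 differed by 2056 times or more in every species, and CACNG1 by at least 6646 times in cattle, as the plot of levels by library shows.

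**Figure D1:**
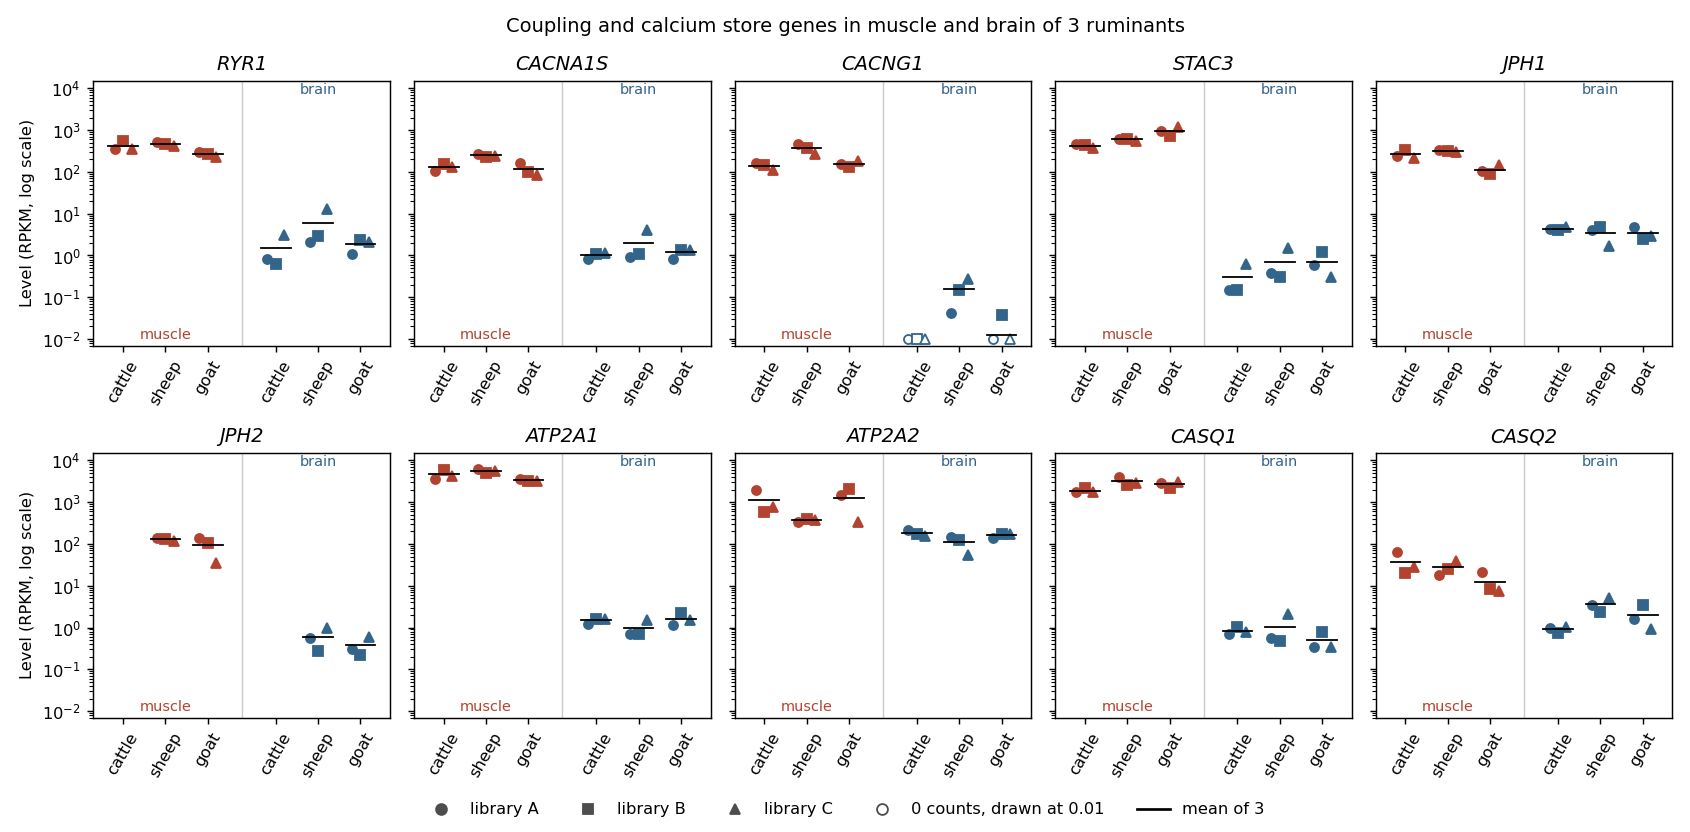
Levels (RPKM, log scale) of the 10 genes in each library, with muscle left and brain right in each panel, by species; bars are means of 3 libraries and open symbols are libraries with 0 counts, drawn at 0.01. ATP2A2 has the highest brain levels, with muscle means of 371 to 1294 RPKM and brain means of 109 to 179 RPKM, and JPH2 has no whole cattle model.

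The release channel RYR1 (cattle chromosome 18, 48237459 to 48365215, plus strand, 113 exons in the annotation used for counting on ARS-UCD1.2) lay between RASGRP4 and MAP4K1 in all 3 genomes. Its level was 362, 562 and 347 RPKM in cattle muscle, against 0.835, 0.629 and 3.06 RPKM in cattle brain. Sheep muscle had 507, 455 and 425 RPKM, against 2.12, 2.87 and 12.8 RPKM in sheep brain. Goat muscle had 296, 265 and 224 RPKM, against 1.1, 2.41 and 2.1 RPKM in goat brain. Every muscle library stood far above every brain library, and brain libraries C of cattle and sheep were the high ones of their groups. The log2 change, muscle over brain, was 8.03 ± 0.76 in cattle (SE, adjusted p = 2.18e-05), 6.29 ± 0.85 in sheep (adjusted p = 0.00121) and 7.10 ± 0.46 in goat (adjusted p = 2.44e-06), each by edgeR.

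CACNA1S, the voltage sensor (cattle chromosome 16, 79599108 to 79660665), was at 108 to 154 RPKM in cattle muscle and at 0.829 to 1.14 RPKM in cattle brain. It was at 234 to 275 RPKM in sheep muscle and at 0.937 to 3.97 RPKM in sheep brain, and at 84.7 to 161 RPKM in goat muscle and 0.808 to 1.39 RPKM in goat brain. Its muscle level was thus 130 times its brain level in cattle, 124 times in sheep and 96.7 times in goat, as ratios of means. Per CACNA1S level, RYR1 stood at 3.21 ± 0.536 in cattle muscle, 1.86 ± 0.082 in sheep muscle and 2.39 ± 0.474 in goat muscle (SD, n = 3 libraries each). The cattle ratios of 2.61 to 3.66 did not overlap the sheep ratios of 1.78 to 1.95, and the cattle and goat ratios did overlap. On counts not divided by model length, which is 7865 exonic bases for CACNA1S in cattle and 5604 in sheep, the ratios were 5.25 to 7.34 in cattle and 4.86 to 5.3 in sheep and overlapped. These are ratios of transcript levels and not of channel proteins, and they were not tested.

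CACNG1, the gamma subunit (cattle chromosome 19, 63125471 to 63133138), had no count in any cattle brain library and 3923, 4359 and 3157 counts in the cattle muscle libraries. With a floor of 3 counts over the cattle brain group, its level was at least 6646-fold higher in cattle muscle. Sheep muscle had 459, 369 and 267 RPKM, against 0.0432, 0.149 and 0.272 RPKM in sheep brain, where these stand for 1, 4 and 6 counts. In goat, 15524 counts in muscle faced 2 counts in brain, a ratio of pooled levels of 14493 with an exact (Clopper-Pearson) 95% interval of 4012 to 119687 that covers counting error only. Among members with a whole gene model, CACNG1 had the lowest mean brain level in each species. The cattle JPH2 fragments were also near 0 in brain, with 2, 0 and 4 counts for fragment 2.

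STAC3, the adaptor (cattle chromosome 5, 56193684 to 56200300), was at 378 to 475 RPKM in cattle muscle and at 0.146 to 0.639 RPKM in cattle brain. It was at 549 to 631 RPKM in sheep muscle and 0.298 to 1.48 RPKM in sheep brain, and at 738 to 1190 RPKM in goat muscle and 0.301 to 1.2 RPKM in goat brain. The log2 change, muscle over brain, was 10.33 ± 0.59 in cattle, 9.72 ± 0.82 in sheep and 10.41 ± 0.60 in goat (SE, edgeR). STAC3 transcript exceeded that of its partner CACNA1S in every muscle library, by a ratio of 2.8 to 4.4 in cattle, 2.3 to 2.68 in sheep and 6 to 14.1 in goat. The goat ratios did not overlap those of the other species on this scale. On counts not divided by length they were 0.755 to 1.19 in cattle, 0.446 to 0.522 in sheep and 1.07 to 2.5 in goat, so cattle and goat overlapped, and the STAC3 model has 2119 exonic bases in cattle, 1089 in sheep and 1074 in goat.

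JPH1 (cattle chromosome 14, 37502881 to 37595533) had 238, 343 and 221 RPKM in cattle muscle, against 4.3, 4.03 and 4.93 RPKM in cattle brain. In sheep it had 330, 314 and 308 RPKM in muscle, against 4.08, 4.68 and 1.67 RPKM in brain. In goat it had 103, 88.8 and 146 RPKM in muscle, against 4.82, 2.55 and 2.92 RPKM in brain. The goat muscle libraries all lay below the muscle libraries of cattle and sheep, while the brain libraries of the 3 species lay in one range. Apart from ATP2A2, JPH1 had the highest brain mean of the set in cattle and goat, at 4.42 and 3.43 RPKM; in goat it overlapped CASQ2, the next in order.

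JPH2 had 140, 134 and 115 RPKM in sheep muscle, against 0.571, 0.274 and 0.972 RPKM in sheep brain. In goat it had 137, 108 and 35.3 RPKM in muscle, against 0.311, 0.225 and 0.592 RPKM in brain. Goat muscle C was low against the other goat muscle libraries, and no muscle library reached down to the brain range. The cattle fragments, of 309 and 327 exonic bases on chromosome 13, were assigned to JPH2 because they lie inside its RefSeq span, used without conversion. They lie between TOX2 and OSER1, as the sheep and goat genes do, and share no exon length with the sheep gene. They had 975 to 1350 and 549 to 829 counts in muscle, against 2 to 8 and 0 to 4 counts in brain. Both fragments were called, with log2 changes of 8.93 ± 0.40 and 9.11 ± 0.52, against 7.75 ± 0.59 for the whole gene in sheep and 7.92 ± 0.67 in goat (SE, edgeR). JPH1 took 71.1% ± 1.46 of the JPH1 plus JPH2 level in sheep muscle and 42.8%, 45% and 80.5% in goat muscle A, B and C.

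ATP2A1, the calcium pump of fast fibres (cattle chromosome 25, 25929240 to 25946430), was the most abundant transcript of the set in muscle. Its level was 3554, 5980 and 4309 RPKM in cattle muscle, against 1.19, 1.63 and 1.63 RPKM in cattle brain. Sheep muscle had 6099, 5025 and 5526 RPKM, against 0.688, 0.691 and 1.48 RPKM in sheep brain. Goat muscle had 3620, 3135 and 3188 RPKM, against 1.16, 2.2 and 1.48 RPKM in goat brain. No muscle library fell below 3135 RPKM and no brain library exceeded 2.2 RPKM. The log2 change was 11.51 ± 0.43 in cattle, 12.51 ± 0.60 in sheep and 10.97 ± 0.52 in goat (SE, edgeR).

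ATP2A2, the pump of slow fibres and of most other cells (cattle chromosome 17, 54211210 to 54267854), was the one gene of the set with a high level in brain. Cattle muscle had 1987, 596 and 779 RPKM, against 212, 171 and 152 RPKM in cattle brain. Sheep muscle had 337, 397 and 379 RPKM, against 147, 125 and 54.9 RPKM in sheep brain. Goat muscle had 1476, 2060 and 345 RPKM, against 136, 174 and 172 RPKM in goat brain. Muscle and brain did not overlap in any species, but the muscle libraries of cattle and of goat spread widely while those of sheep lay close together. The log2 change was 2.56 ± 0.46 in cattle (adjusted p = 0.000984), 1.77 ± 0.40 in sheep (adjusted p = 0.0103) and 2.99 ± 0.59 in goat (adjusted p = 0.00202), by edgeR. With library totals alone as scaling, the sheep change was 0.77 (adjusted p = 0.185) and was not called.

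CASQ1 (cattle chromosome 3, 9474927 to 9484746) followed ATP2A1 as the second transcript in muscle of every species. It was at 1781 to 2137 RPKM in cattle muscle and 0.711 to 1.01 RPKM in cattle brain, at 2627 to 4123 RPKM in sheep muscle and 0.475 to 2.08 RPKM in sheep brain, and at 2157 to 3071 RPKM in goat muscle and 0.344 to 0.786 RPKM in goat brain. As ratios of means, muscle stood 2280 times above brain in cattle, 3108 times in sheep and 5538 times in goat. The ratio of ATP2A1 to CASQ1, pump to buffer, was 1.98 to 2.8 in cattle muscle, 1.48 to 1.91 in sheep muscle and 1.04 to 1.45 in goat muscle, and the 3 species did not overlap on this scale. On counts not divided by length the ratios were 3.24 to 4.59, 3.39 to 4.38 and 2.95 to 4.13, and all 3 species overlapped. The exonic length of CASQ1 is 2043 bases in cattle, 1419 in sheep and 1198 in goat. Its sheep model spans 163 kb, against 9.8 kb in cattle and 8.6 kb in goat, although its 12 exons keep 9 cattle exon lengths.

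CASQ2 (cattle chromosome 3, 27540536 to 27611173), the calsequestrin of slow fibres and heart, was the least abundant of the set in muscle. Cattle muscle had 63.2, 20.7 and 28.4 RPKM, against 0.963, 0.754 and 1.05 RPKM in cattle brain. Sheep muscle had 18.5, 25.7 and 39.3 RPKM, against 3.47, 2.37 and 5.17 RPKM in sheep brain. Goat muscle had 21.1, 8.51 and 7.68 RPKM, against 1.56, 3.47 and 0.911 RPKM in goat brain. Muscle was above brain throughout, yet in every species by a far smaller margin than for CASQ1. The log2 change was 5.25 ± 0.46 in cattle, 2.92 ± 0.46 in sheep and 2.62 ± 0.59 in goat (SE, edgeR), and CASQ2 took 52.5% of the CASQ1 plus CASQ2 level in cattle brain, 80.3% in sheep brain and 78.7% in goat brain. Its share in muscle was 1.98%, 0.915% and 0.452% in these species.

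In order of mean level, muscle ran ATP2A1, CASQ1, ATP2A2, STAC3, RYR1, JPH1, CACNG1, CACNA1S and CASQ2 in cattle. There the pairs CASQ1 and ATP2A2, STAC3 and RYR1, and CACNG1 and CACNA1S overlapped between libraries. In sheep muscle ATP2A2 stood lower, at 371 ± 30.3 RPKM, behind STAC3 and RYR1 and overlapping CACNG1 (365 ± 96.2 RPKM, SD, n = 3 libraries). In goat muscle ATP2A2 again came next after CASQ1, at 1294 ± 872 RPKM, and overlapped STAC3. In brain ATP2A2 came first in every species, without overlap with the next gene.

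The muscle libraries differed in their balance of fast and slow fibre genes, and ATP2A2 differed with it. ATP2A1 took 64.1%, 90.9% and 84.7% of the ATP2A1 plus ATP2A2 level in cattle muscle A, B and C, 94.8%, 92.7% and 93.6% in sheep muscle, and 71%, 60.3% and 90.2% in goat muscle. Cattle A and goat A and B were the libraries with a large ATP2A2 part. A list of 7 slow fibre genes (MYH7, TNNT1, TNNC1, MYL2, MYL3, MYOZ2, TPM3) summed to 64105, 19246 and 36716 RPKM in cattle muscle A, B and C, to 7373, 11498 and 9609 RPKM in sheep, and to 37837, 39732 and 16704 RPKM in goat. A list of 7 fast fibre genes (ACTN3, TNNT3 and others) summed to 54180, 97942 and 82279 RPKM in cattle, to 117254, 101067 and 103788 RPKM in sheep, and to 91438, 84398 and 217526 RPKM in goat. The fast myosins MYH1 and MYH2, and TNNI1 of the slow list, had no match in all 3 species and are not in these sums. A fast sum and a slow sum therefore cannot be set against each other as a full fibre balance. Within each species, the 3 libraries had the same order by slow sum as by ATP2A2 level, and goat C paired the highest fast sum of all 9 with the lowest ATP2A2 of its group. Which muscle or part of it each library came from was not tested. The level of CASQ2 per ATP2A2 level was 0.0318 to 0.0364 in cattle, 0.0547 to 0.104 in sheep and 0.00413 to 0.0222 in goat, without overlap between species. On counts not divided by length these ratios were 0.0201 to 0.023, 0.0203 to 0.0385 and 0.00496 to 0.0267, and all 3 species overlapped.

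**Figure D2:**
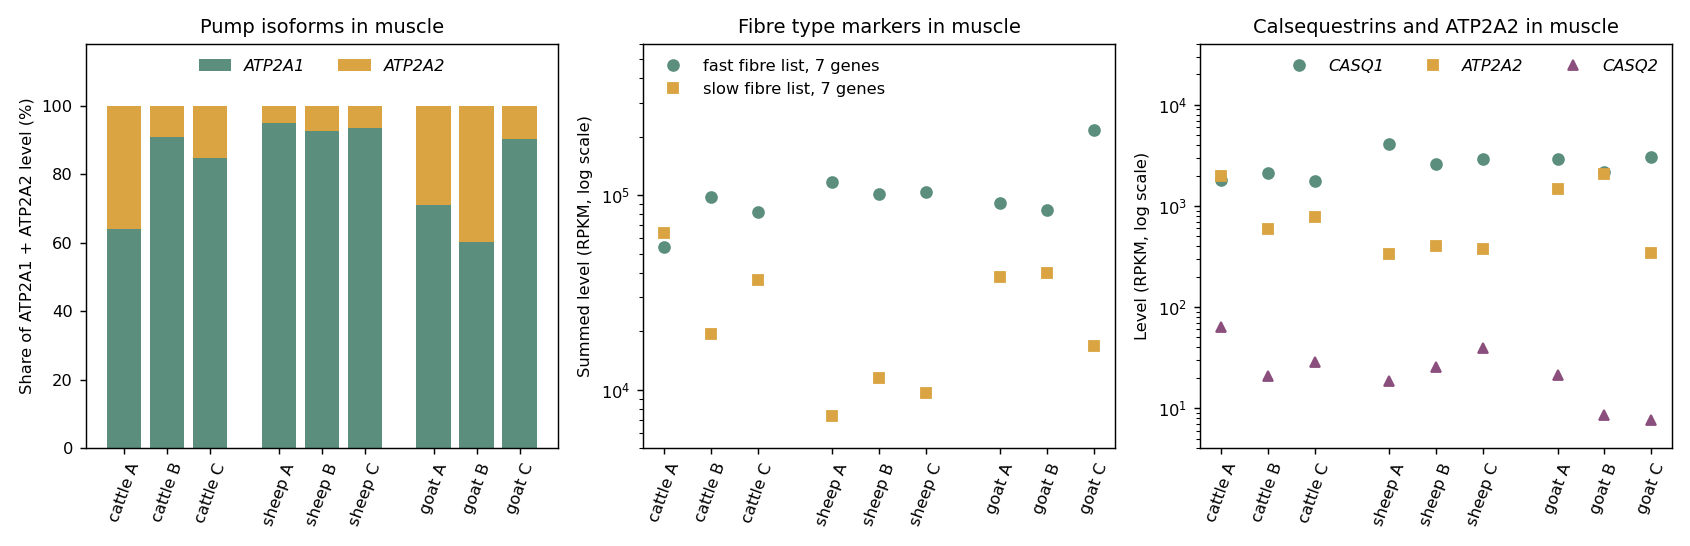
For each of the 9 muscle libraries, the share of ATP2A1 and ATP2A2 in their summed level (percent, left), the summed level of the fast and slow fibre lists (RPKM, log scale, middle) and the levels of CASQ1, ATP2A2 and CASQ2 (RPKM, log scale, right). Cattle A, with an ATP2A1 share of 64.1%, is the one library whose slow sum is above its fast sum. The fast list lacks MYH1 and MYH2 and the slow list lacks TNNI1, so the 2 sums are not a full fibre balance.

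Between species, the ATP2A1 share in muscle was 79.9% ± 14 in cattle and 93.7% ± 1.04 in sheep, a difference of -13.8 points (exact two-sided permutation test, p = 0.1, adjusted p = 0.233 over 7 share comparisons). Sheep exceeded goat (73.9% ± 15.1) by 19.8 points, again at p = 0.1 by the exact permutation test (adjusted p = 0.233), and cattle exceeded goat by 6.04 points (exact permutation p = 0.7, adjusted p = 0.7). All 3 sheep libraries lay above all libraries of cattle and of goat. With 3 libraries against 3, 0.1 is the smallest p that this test can give. The difference between cattle and sheep was -5.87 points without cattle muscle A, that between sheep and goat 28 points without goat muscle C and 13 points without goat muscle B, and that between cattle and goat turned to -0.72 points without goat muscle B.

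In muscle, cattle over sheep, 2 of the 9 matched members were called, where 29.6% of all tested genes were. ATP2A2 was higher in cattle, by a log2 of 1.60 ± 0.53 (SE, edgeR adjusted p = 0.0284), and CACNG1 was lower, by a log2 of -1.37 ± 0.37 (adjusted p = 0.00913). CACNG1 was at 113 to 163 RPKM in cattle muscle and at 267 to 459 RPKM in sheep muscle, without overlap. The ATP2A2 difference was 0.89 (adjusted p = 0.215) without cattle muscle A, and its adjusted p was 0.0691 to 0.0877 without any 1 of the sheep muscle libraries. Over the 9 members the median log2 was -0.27, against -0.04 over all genes.

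In muscle, cattle over goat, 2 of 9 were called, where 34.5% of all genes were: JPH1 at 1.25 ± 0.34 (SE, edgeR adjusted p = 0.00742) and CASQ2 at 1.59 ± 0.53 (adjusted p = 0.0243), both higher in cattle. CASQ2 overlapped between these groups, since goat muscle A, at 21.1 RPKM, was above cattle muscle B, at 20.7 RPKM. Its call was lost without cattle muscle A (0.98, adjusted p = 0.168), without goat muscle B (1.37, adjusted p = 0.0918) and without goat muscle C (1.33, adjusted p = 0.097). With library totals alone CASQ2 was not called (1.33, adjusted p = 0.0658) and STAC3 was, as lower in cattle (-1.40, adjusted p = 0.0443), against -1.17 (adjusted p = 0.0881) with the TMM scaling used throughout. The median log2 of the 9 was 0.19, against 0.04 over all genes.

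In muscle, sheep over goat, 3 of 9 were called, where 23.9% of all genes were. JPH1 was higher in sheep, by 1.5 ± 0.34 (SE, edgeR adjusted p = 0.00349), and so was CACNG1, by 1.25 ± 0.36 (adjusted p = 0.0182), while ATP2A2 was lower in sheep, by -1.80 ± 0.54 (adjusted p = 0.0183). ATP2A2 overlapped between these groups: goat muscle C, at 345 RPKM, lay within the sheep libraries, and without it the log2 was -2.25 (adjusted p = 0.00199). The call of ATP2A2 was lost without goat muscle A (-1.70, adjusted p = 0.0505), without goat muscle B (-1.29, adjusted p = 0.103) and without any 1 sheep muscle library (adjusted p of 0.0519 to 0.065). CACNG1 was not called without sheep muscle A, goat muscle A or goat muscle B, at log2 values of 1.05, 1.24 and 1.15. CASQ2 (1.16, adjusted p = 0.112) and CACNA1S (1.11, adjusted p = 0.0611) were not called, but both were without goat muscle A, at 1.78 and 1.44. JPH2, compared in a fit of sheep and goat alone in which 22.4% of genes were called, differed by 0.48 ± 0.51 (adjusted p = 0.532).

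The length of the gene models enters these comparisons, because the annotations differ in how much of each transcript they hold. JPH1 has 4782 exonic bases in cattle, 2575 in sheep and 5743 in goat, CACNG1 has 1313, 672 and 2043, and CASQ2 has 2768, 1296 and 3843, whereas RYR1 (15799, 15265 and 15342) and ATP2A1 (3347, 3249 and 3401) hardly differ. Without the length term, the log2 of JPH1 was 0.66 for cattle over goat and 0.45 for sheep over goat, that of CASQ2 for cattle over goat was 0.80, and none of these was called. CACNG1 for cattle over sheep was -0.84 and not called, for sheep over goat it turned to -0.24, and for cattle over goat it was -1.08 and called (adjusted p = 0.0274). ATP2A2 was called on both scales, at 1.49 for cattle over sheep and -1.57 for sheep over goat without the length term. Whether reads fall evenly over the modelled exons of these genes was not tested.

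**Figure D3:**
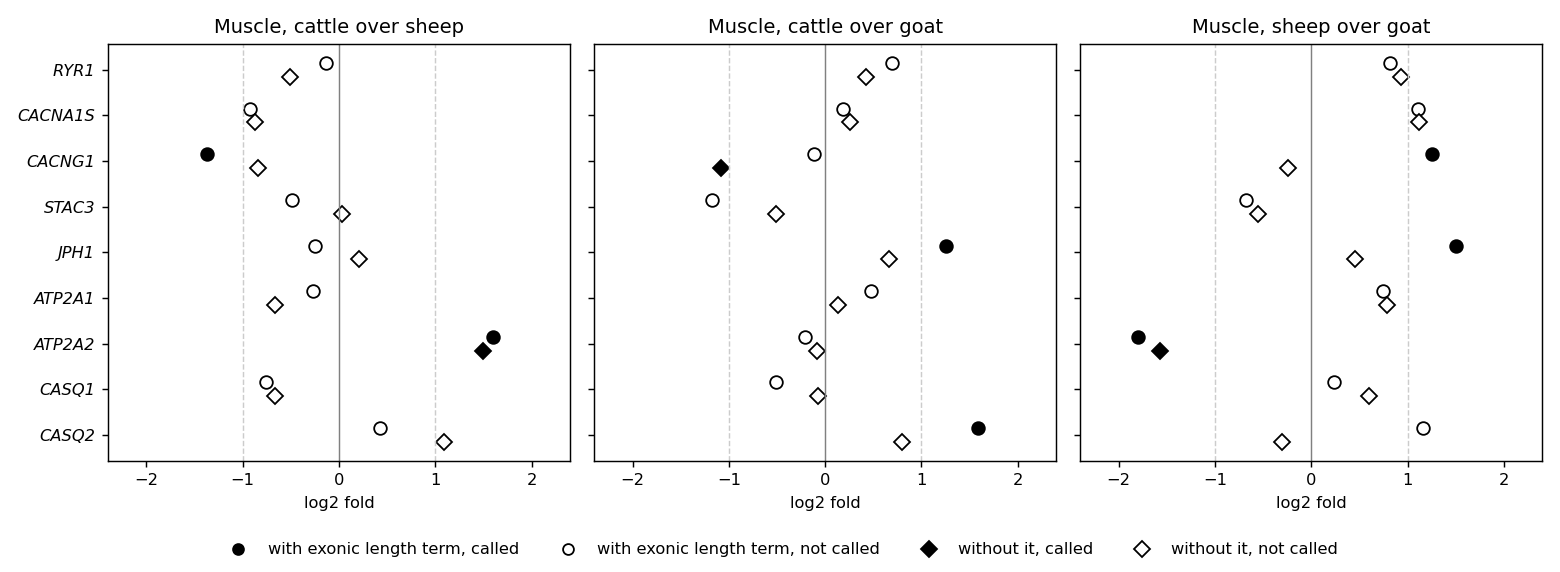
Differences between species in muscle (log2 fold) for the 9 members matched in 3 species, with the exonic length term (circles) and without it (diamonds); filled symbols are called and dashed lines mark 2-fold. Only ATP2A2, at 1.60 and 1.49 for cattle over sheep and -1.80 and -1.57 for sheep over goat, is filled on both scales.

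In brain, 3 of the 9 members were called between cattle and sheep, where 26% of all genes were, and all 3 were lower in cattle. RYR1 differed by -1.97 ± 0.63 (SE, edgeR adjusted p = 0.0248) and CASQ2 by -1.99 ± 0.55 (adjusted p = 0.012). CACNG1 had 0 counts in cattle brain and 11 in sheep brain. Its pooled sheep level was 7.23 times the floor of 3 counts over the cattle group. This value leaves out the counting error of the 11 sheep counts, so it is no strict lower bound. For RYR1 the groups overlapped, since cattle brain C had 3.06 RPKM and sheep brain A 2.12 RPKM, and without sheep brain C the difference was -0.66 (adjusted p = 0.347). It was also not called without cattle brain A (-1.68) or without cattle brain B (-1.60). CASQ2 did not overlap, at 0.754 to 1.05 RPKM in cattle brain and 2.37 to 5.17 RPKM in sheep brain. Its difference was -1.58 without sheep brain C (adjusted p = 0.0528), -1.86 without cattle brain B (adjusted p = 0.0511) and -1.34 without the length term (adjusted p = 0.0639). Without sheep brain C, ATP2A1 was called in the opposite direction, higher in cattle than in sheep by 1.18 (adjusted p = 0.0116), against 0.64 (adjusted p = 0.163) with it. CACNA1S was called lower in cattle without sheep brain A (-1.33) or B (-1.28), and STAC3 without cattle brain C (-2.23).

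For brain of cattle over goat, edgeR called none of the 9 and none had an unadjusted p below 0.05, where 24.1% of all genes were called. DESeq2 called 0 as well, while edgeR called STAC3 without cattle brain C and CASQ2 without the length term. For brain of sheep over goat, 1 of 9 was called, where 18.3% of genes were: CACNG1, on 11 counts in sheep against 2 in goat. The ratio of pooled levels was 14.5, with an exact 95% interval of 3.17 to 135 that covers counting error only. Both goat counts were in goat brain B. Without sheep brain C, ATP2A1 was called lower in sheep than in goat, by -1.32 (adjusted p = 0.00733). RYR1 was called higher in sheep by DESeq2 (1.67), without sheep brain A (2.07) and without sheep brain B (2.0). The call of CACNG1 was lost without sheep brain C (adjusted p = 0.0753) and without the length term (adjusted p = 0.111).

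Sheep brain C stood apart from its group for several members at once. It had the highest RYR1 (12.8 RPKM), CACNA1S (3.97 RPKM), CASQ1 (2.08 RPKM), CASQ2 (5.17 RPKM) and STAC3 (1.48 RPKM) of the 9 brain libraries. It also had the lowest ATP2A2 (54.9 RPKM) and JPH1 (1.67 RPKM) of them. Muscle genes were also higher in it than in sheep brain A and B. The 6 skeletal muscle markers summed to 23.5 RPKM in it, the highest of the 9 brain libraries, and to 16.8 and 9.61 RPKM in A and B, while sheep muscle had 61163 to 67092 RPKM. Fast fibre genes summed to 36.2 RPKM in it and to 7.05 and 11.3 RPKM in A and B. For 4 smooth muscle and pericyte genes the sums were 178 RPKM in it, 90.7 and 57.4 RPKM in A and B, and 227 to 359 RPKM in sheep muscle. The 2 matched heart genes, at 6.43 RPKM in it and 3.02 and 3.56 RPKM in A and B, do not mark muscle here. They summed to 0.237 to 0.84 RPKM in sheep muscle, and both were called lower there than in sheep brain. The part of any of these lists in the members' values was not tested. The 6 neuronal genes summed to 1522 RPKM in it, against 3128 and 2526 RPKM in sheep brain A and B. Of 4 matched Purkinje cell and cerebellum genes, which summed to 860 RPKM in it and 369 and 295 RPKM in A and B, PCP4 alone made up 845 RPKM, CALB1 was at 0.465 RPKM, CA8 was at 9.81 RPKM and ITPR1 at 5 RPKM, both below A and B. What part of the brain each library came from was not tested.

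The tissue contrast itself was also compared between species. The muscle over brain change of CASQ2 was larger in cattle than in sheep, by a log2 of 2.42 ± 0.75 (SE, edgeR interaction test, adjusted p = 0.0323), and larger in cattle than in goat, by 2.68 ± 0.76 (adjusted p = 0.0266). Gene model length cancels in this comparison, and without the length term these values were 2.43 and 2.71. For cattle over sheep 2 of 9 members were called, where 19.6% of genes were, and for cattle over goat 1 of 9, where 13.5% were. These counts are near the shares of all genes. The other call, CACNG1 for cattle over sheep, rests on the 0 counts of cattle brain. Without cattle muscle A the CASQ2 values were 1.81 (adjusted p = 0.107) and 2.08 (adjusted p = 0.0818), and neither was called. The CASQ2 call for cattle over sheep was also lost without any 1 cattle brain library, sheep brain C, sheep muscle A or sheep muscle B (2.08 to 2.51, adjusted p of 0.0536 to 0.0816) and under totals alone (2.28, adjusted p = 0.0544). For cattle over goat it was lost without cattle brain A or B, goat brain B, or goat muscle B or C (2.0 to 2.72, adjusted p of 0.0567 to 0.0834). CACNG1 was not called without any 1 cattle brain library or sheep brain C (adjusted p of 0.0643 to 0.0798), nor with a block for the replicate letter (adjusted p = 0.111). Of 6 listed heart genes, 5 were named in cattle. In cattle muscle NPPA and NPPB had no count in any of the 3 libraries and MYBPC3 was at 0.0899 to 0.0967 RPKM. TNNT2 was at 2.3 to 5.28 RPKM and MYH6 at 4.59 to 20.4 RPKM, the highest value being that of library A. Only MYH6 and MYBPC3 were matched in the other species, where they summed to 0.237 to 0.84 RPKM in sheep muscle and 4.26 to 16.4 RPKM in goat muscle. Both were called higher in cattle than in sheep muscle (median log2 of 3.55), where 29.6% of all genes were called. Both also had a larger tissue contrast in cattle than in sheep (median log2 of 6.07). For cattle over goat, 1 of the 2 was called higher in muscle and 1 in the tissue contrast. The part of other cell types in these values was not tested.

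For sheep over goat, the edgeR interaction test called none of the 9 members, with 3 at an unadjusted p below 0.05 (JPH1 at 1.48, ATP2A1 at 1.5 and CACNG1 at -2.22), where 7.71% of genes were called. DESeq2 called 2, JPH1 and ATP2A1, and the share of all genes that it called is not given here. Without sheep brain C, edgeR called ATP2A1 and CACNA1S here, and it called ATP2A1 and CASQ1 lower for cattle over sheep in place of CASQ2 and CACNG1.

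The paralogs of these families divided between the tissues. RYR2, the release channel best known from heart and brain, was at 0.0229 to 0.302 RPKM over the 9 muscle libraries and at 4.62 to 11.1 RPKM over the 9 brain libraries, and RYR3 stayed below 1.3 RPKM in both tissues. RYR1 made up at least 99.7% of the RYR level in every muscle library. In brain RYR1 made up 7.82%, 7.02% and 19.9% of it in cattle, 22.3%, 31% and 71.2% in sheep, and 16.2%, 21.6% and 25% in goat. RYR2 was thus the main form in 8 of the 9 brain libraries, and sheep brain C was the exception.

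JPH3 and JPH4, the junctophilins of neurons, were at 47.4 to 145 RPKM and at 72.6 to 135 RPKM in brain and at no more than 0.304 and 0.105 RPKM in muscle. In brain, JPH3 and JPH4 together made up nearly all of the junctophilin level, and JPH1 took 1.52% ± 0.626 of it in sheep and 1.85% ± 0.502 in goat (SD, n = 3 libraries). ATP2A3, the pump of blood and endothelial cells among others, was at 1.08 to 3.34 RPKM in muscle and at 1.77 to 8.48 RPKM in brain, so that ATP2A2 held 98% of the summed pump level in cattle brain, 92.2% in sheep brain and 97.4% in goat brain.

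**Figure D4:**
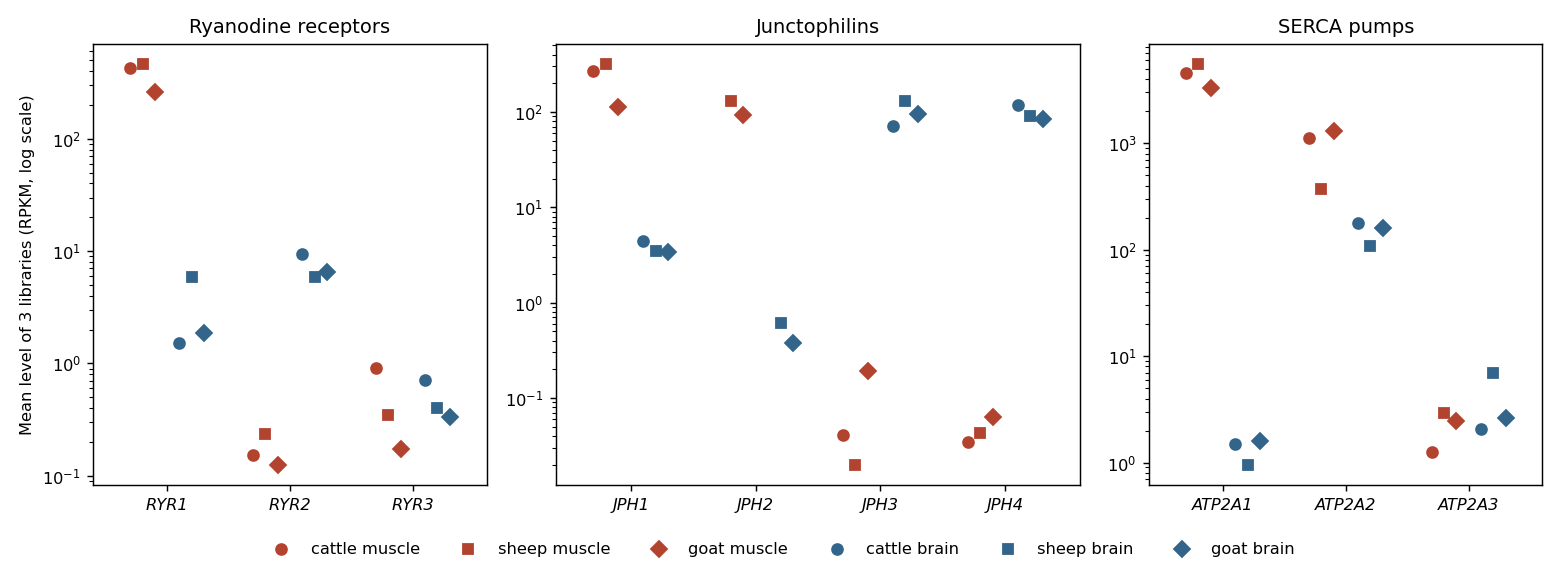
Mean level of 3 libraries (RPKM, log scale) of each ryanodine receptor, junctophilin and SERCA pump gene, with muscle left and brain right of each tick and 1 symbol per species. RYR1, JPH1, JPH2 and ATP2A1 are high in muscle, RYR2, JPH3 and JPH4 are high in brain, and ATP2A2 is above 100 RPKM in both.

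Of 49 further triad and calcium store genes, 46 had a cattle name and 40 had partners in both other species, and these moved both ways. Muscle over brain, 18 were called higher and 19 lower of 46 in cattle, 18 higher and 16 lower of 40 in sheep, and 17 higher and 16 lower of 40 in goat, with median log2 values of 0.10, -0.09 and -0.01. Of all genes, 25.3% were called higher and 33.9% lower in muscle in cattle, 19.1% and 28.6% in sheep, and 23.2% and 31.4% in goat. Among those higher were SRL, a calcium binder of the reticulum (log2 of 7.37, 7.11 and 6.16 in cattle, sheep and goat), and HRC, another store protein (6.45, 7.32 and 9.38). JSRP1, a triad protein that binds the voltage sensor, was at 223 to 752 RPKM over the 9 muscle libraries and had 0 to 6 counts in the brain libraries, and CAV3, the caveolin of muscle, was at 69.4 to 358 RPKM in muscle and had 0 to 6 counts in brain. Small proteins that restrain the pumps were high as well: PLN, phospholamban, was at 704 to 1436 RPKM in cattle muscle and 0.958 to 1.97 RPKM in cattle brain. SLN, sarcolipin, was at 851, 2519 and 1925 RPKM in cattle muscle A, B and C and at no more than 0.559 RPKM in cattle brain. PLN was at 1814, 2088 and 190 RPKM in goat muscle A, B and C and at 8.14 to 38 RPKM in goat brain, so goat C was low for this gene as it was for ATP2A2.

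Lower in muscle were ATP2B2 and ATP2B3, calcium pumps of the plasma membrane, SLC8A2, a sodium-calcium exchanger of neurons, CAMK2A, a kinase of the synapse, and STAC2, a relative of STAC3 (log2 of -4.18, -4.13 and -4.20 in cattle, sheep and goat). PVALB, parvalbumin, a calcium buffer of fast fibres in mouse and of interneurons, was at 0.236 to 8.56 RPKM in muscle and at 16.2 to 165 RPKM in brain. It was therefore called lower in muscle in each species, by log2 values of -5.72 in cattle, -5.38 in sheep and -2.71 in goat. CACNB1, the beta subunit that pairs with CACNA1S, was called higher in muscle in sheep (2.67) and goat (2.46), but in cattle it was at 65 to 72.8 RPKM in muscle and 49.6 to 58.9 RPKM in brain (log2 of 0.26, adjusted p = 0.119 by edgeR). The tissue contrast of CACNB1 differed by -2.32 ± 0.37 for cattle over sheep (SE, edgeR interaction test, adjusted p = 0.000572) and by -2.14 ± 0.37 for cattle over goat (adjusted p = 0.00135).

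Between species in muscle, 4 of the 40 were called higher and 5 lower for cattle over sheep, 4 higher and 5 lower for cattle over goat, and 0 higher and 4 lower for sheep over goat, where 29.6%, 34.5% and 23.9% of all genes were called in either direction. Each of these counts is a smaller share of the 40 than that of all genes, with median log2 values of -0.11, 0.01 and 0.22. CACNB1 was lower in cattle than in sheep (-1.19 ± 0.26, SE) and in goat (-1.33 ± 0.26), and HRC likewise (-1.36 ± 0.39 and -1.45 ± 0.39). RYR3 was higher in cattle than in sheep (1.38 ± 0.44) and in goat (2.38 ± 0.46), at levels of 0.78 to 1.11 RPKM in cattle, 0.337 to 0.369 RPKM in sheep and 0.146 to 0.198 RPKM in goat. These pairs share the cattle libraries. The calls of the 40 genes are given for the main fit only. Whether they hold without the length term or without single libraries is not reported here. HACD1, an enzyme of very long chain fatty acid synthesis, was higher in cattle than in sheep (1.13 ± 0.35) and lower in sheep than in goat (-1.77 ± 0.35). The remaining calls were CACNA1D, ATP2B2, CACNA1C, CAMK2A and ATP2A3 for cattle over sheep, JSRP1, CACNA1D, ITPR1, PVALB, JPH3 and CAV3 for cattle over goat, and JPH3, CAV3 and ATP2B2 for sheep over goat.

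The genes nearest to each member were found among 12808 named genes by the root mean square difference of their centred log2 levels over the 6 group means. This is a description with no test, since groups share tissue and library. CACNG1 lay nearest to SCN4A, the sodium channel of muscle, at 0.21. ATP2A1 lay nearest to ENO3, the enolase of muscle, at 0.29, followed by KLHL41 and ACTN3. CASQ1 lay nearest to AMPD1, the AMP deaminase of muscle, at 0.35, and ATP2A1 was close to it at 0.49. RYR1 lay nearest to IP6K3 (0.41), CACNA1S to ASB16 (0.36), STAC3 to MYL3 (0.47), JPH1 to UNC93A (0.21) and CASQ2 to HHATL (0.31). ATP2A2 lay nearest to MRPL35 (0.15) and had 97 genes within 0.5, against 2 to 14 for the other members.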

How the data were processed

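The values deposited by the authors are raw read counts per gene and library, made separately per species on Ensembl gene identifiers. Per the labels, total RNA was extracted with TRIzol and polyadenylated RNA was selected. Per the submitters' processing notes, Trimmomatic 0.39, STAR 2.7.6 and featureCounts were used, with ARS-UCD1.2 as the build named. No source used here gives the sheep and goat builds or the strandedness. Cattle ATP2A1 and ATP2A2 models overlap other gene models by 57 antisense and 111 sense bases.

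The 10 members, the lists and the tests were chosen with earlier results of these data known. Cattle names came from RefSeq spans on the later assembly ARS-UCD2.0, since 0 identifiers matched. Spans were set beside the deposited ones without conversion, and a name needed an overlap of at least 0.5 of the union. The 16849 named genes overlapped by a median of 98.6%, and the 9 members named this way by 88.3% to 99.9%. Partners needed 2 shared pairs of neighbouring exon lengths in a first pass, 1 shared exon length and a place near matched neighbours (5 a side, at most 15 ranks away) in the next, and equal runs of at most 4 unmatched genes in the last, which gave 15194 genes in 3 species (8814, 4829 and 1551 by pass). Of first-pass partners, 97.4% to 98.4% lay between their neighbours.

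Counts were fitted with edgeR 4.0.16 in R 4.3.3 (filterByExpr, TMM scaling, robust quasi-likelihood), within each species, and over all 18 libraries with exonic length as an offset for species comparisons. Standard errors came from the log2 change and its F statistic. RPKM was computed from the counts; floors were 3 counts over a group. All 10 members were named. Of 49 further genes, those called between species in muscle were named, with paralogs of members and examples picked from the genes compared between tissues. The other genes called between tissues were counted but not named. Likeness used a pseudocount of 0.5. Alternatives were RLE scaling, library totals, no filter, DESeq2 1.42.0, no length offset, first-pass matches, a replicate block, shares on counts and leaving out each library. The fits were tested on simulated data. Leaving out 2 libraries together, the fit of sheep and goat alone for JPH2, and ratios on counts, were added after seeing the data.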

Additional observations from a re-analysis of the deposited data

Results flagged for a closer look

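The muscle over brain change of CASQ2 differed between cattle and sheep by 2.42 on the log2 scale and between cattle and goat by 2.68 (edgeR interaction tests, adjusted p = 0.0323 and 0.0266). The change was 5.25 in cattle, 2.92 in sheep and 2.62 in goat, and all 3 cattle muscle libraries were above all 3 cattle brain libraries, as in the other species. Cattle muscle averaged 37.4 RPKM, against 27.8 RPKM in sheep and 12.4 RPKM in goat muscle, and cattle brain averaged 0.923 RPKM, against 3.67 RPKM in sheep and 1.98 RPKM in goat brain. Cattle muscle A, with 63.2 RPKM of CASQ2, also had the highest slow fibre sum, 64105 RPKM. In sheep muscle the highest CASQ2 was in C (39.3 RPKM) and the highest slow sum in B (11498 RPKM). In goat muscle they were in A (21.1 RPKM) and in B (39732 RPKM). The part of fibre type in the result was not tested. Without cattle muscle A the values were 1.81 and 2.08.

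The change of CACNG1 differed between cattle and sheep by a fitted log2 of 4.12 (edgeR interaction test, adjusted p = 0.0306). This value depends on the prior count, because cattle brain had 0 counts, and it is no bound. All 3 cattle brain libraries were at 0, and the sheep brain libraries had 1, 4 and 6 counts.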

How the results depend on the processing

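All 10 members kept their muscle over brain call in cattle and goat under every alternative, and in sheep under all but library totals alone, where 9 were called; 340 of 341 recomputed log2 values within species kept direction and call. Totals alone moved the median log2 of all genes to -0.76, -1.11 and -0.86 in cattle, sheep and goat, and split the calls into 2333 higher and 7334 lower, 1414 and 7102, and 2023 and 7100, against 4161 and 5575, 2986 and 4460, and 3666 and 4971 with TMM.

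Counts between species were small and changed with the setting. The shares of all genes called are given for the main fit only, so these changed counts cannot be set against them. Leaving out 1 library gave 1 to 2 members in muscle for cattle over sheep, 1 to 2 for cattle over goat and 1 to 3 for sheep over goat; 1 to 4, 0 to 1 and 1 to 3 in brain; and 0 to 2, 0 to 1 and 0 to 2 for the tissue difference. Without the length term the muscle counts were 1, 1 and 1, and the brain counts for cattle over goat and sheep over goat were 1 and 2. First-pass matches hold 5 members, so muscle counts were 1, 0 and 1, brain counts 1, 0 and 0, and tissue differences 0, 0 and 0. DESeq2 gave 2 for sheep over goat in brain and 2 in the tissue difference. Totals alone gave 1 tissue difference for cattle over sheep and 1 for sheep over goat. Without sheep brain C and goat muscle C together, 1 member was called for cattle over goat in muscle and 3 tissue differences for each of cattle over goat and sheep over goat. Without cattle muscle A and goat muscle C together, muscle for cattle over sheep had 1, the tissue differences for cattle over sheep and cattle over goat had 0 and 0, and ATP2A2 was called lower in cattle than in goat (-1.36).

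Of 837 recomputed log2 values of single members (all members within species and between species in muscle, and in brain and the tissue difference those called), 57 lost a call, 5 gained one and 10 reversed. In brain and the tissue difference, members not called gained 32 further calls over the alternatives, spread over all 9 members. The cause was not tested except where the length term or the smaller number of libraries is itself the change. Reversed in muscle without the length term were STAC3 (0.03) and JPH1 (0.21) for cattle over sheep, and CASQ2 (-0.30) and CACNG1 (-0.24) for sheep over goat. CASQ2 for cattle over sheep ranged from -0.18 without cattle muscle A, alone or with goat muscle C, to 0.76 without sheep muscle C. CACNA1S for cattle over goat reversed to -0.08 under totals alone. ATP2A2 for cattle over goat reversed to 0.10 without cattle muscle B and 0.30 without goat muscle B, against -0.91 without cattle muscle A, and CACNG1 to 0.01 without cattle muscle C.

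Share differences by leaving out 1 library ranged from -19.3 to -5.87 points (ATP2A1, cattle minus sheep), -0.72 to 14.2 (cattle minus goat) and 13 to 28 (sheep minus goat). On counts not divided by length, CASQ1 for sheep minus goat was 0.597, in place of -0.462, and JPH1 was -9.03, in place of 15.

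Same-letter correlations of deviations between muscle and brain were -0.045 to 0.018 in cattle, 0.086 to 0.120 in sheep and -0.187 to 0.203 in goat. In sheep every letter correlated best with its own, as did cattle B and goat A, and the other letters did not. With so few libraries, these values cannot decide whether the replicate letters pair the samples. With a replicate block within species, 10 members were called in each species, and the tissue difference for cattle over sheep had 1 call (CASQ2), as had that for cattle over goat.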
